A study of Mus musculus with 12 samples.

Results

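The training by genotype interaction asks, for each transcript, whether the difference between Stau2GT and WT brains was the same in naive and in trained mice. It is the Stau2GT minus WT difference in trained mice less the same difference in naive mice, on the log2 scale. A value below 0 means that Stau2GT brains were lower, relative to WT, after training than in naive mice. All 12 arrays of the series entered it, 3 in each of 4 groups. Naive WT and naive Stau2GT mice had not gone through behavioral tests, whereas trained WT and trained Stau2GT mice had 4 weeks of open field, object recognition and location, and Barnes maze tests. All mice were male and 16 to 20 weeks old, and RNA came from brain tissue. WT mice were C57Bl/6J, and Stau2GT mice carried the gene trap allele B6.129P2-Stau2Gt(RRG396)Byg. The study describes this allele as lowering Stau2 brain-wide and only in part. Nothing in the labels or methods says whether mice of both genotypes were littermates, and p-values measure the spread between these mice only.

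Staufen2 is a double-stranded RNA-binding protein that packs mRNAs into granules, carries them into dendrites and affects their stability. Neuronal activity releases such mRNAs from granules, and synaptic activity during learning switches on immediate early genes such as Fos, Egr1 and Arc within the nucleus. A lower level of Staufen2 could therefore in principle show itself differently in mice that were handled and trained and in mice that were not. The interaction takes in any unequal genotype difference, whatever its source, and the source was not tested.

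The array medians lay between 5.68 and 5.79 on the log2 scale, and arrays of a group correlated at 0.978 or higher. The typical spread within a group was largest in trained Stau2GT mice, with a median SD of 0.14 over all clusters against 0.10 to 0.11 in the other 3 groups. Neuronal, astrocytic, oligodendrocyte, microglial and endothelial markers (Snap25, Gfap, Mbp, Cx3cr1, Cldn5) were above 5 on all 12 arrays, and the liver gene Alb on none. Gh, a pituitary hormone gene, ranged from 5.42 to 12.93. In the labels the arrays of naive mice carry another run name than those of trained mice, so training and array run cannot be told apart. A shift that a run gives to both genotypes alike cancels in the interaction, but it does not cancel where levels of naive and trained mice are set side by side. Saying which of the 4 groups lay apart therefore assumes that levels are comparable across training states.

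The interaction passed the test for 6 of 27966 transcript clusters, 0.0215% of those tested (limma, adjusted p under 0.05 by Benjamini-Hochberg). All 6 lay below 0, and none above 0 passed. The next cluster had an adjusted p of 0.066. Without adjustment, 2152 clusters had a p under 0.05, which is 7.7% of those tested, against 1398.3 that a flat distribution of p would give. Of these, 1229 lay above 0 and 923 below. Genotype differences of these 2152 had opposite signs in naive and trained mice in 91.0% of cases. Choosing clusters by a low interaction p itself favors opposite signs, so the share of 91.0% reflects that choice. The difference was larger in trained mice for 1363 and in naive mice for 778. For comparison, the genotype difference itself passed for 24 clusters in naive mice (0.0858%) and for 50 in trained mice (0.179%).

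**Figure D1:**
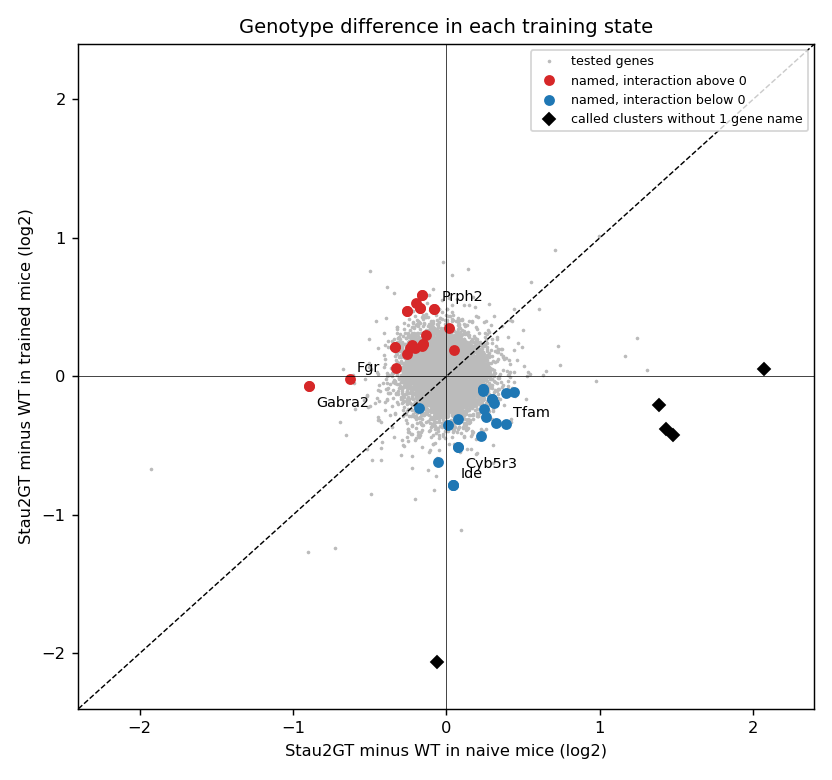
Difference between Stau2GT and WT brains in naive mice (x axis, log2) and in trained mice (y axis, log2), for all tested genes (gray). Colored points are the genes of lowest interaction p in each direction, those named for a group apart, Stau2 and Cbln1. They are red for an interaction above 0 and blue below 0, and genes named only from lists or beside Ide are gray. Black diamonds are the 5 called clusters without a single gene name, and the dashed line marks equal differences. The 4 diamonds at the right lie far from the line with y values near or below 0, and the fifth lies near 0 on the x axis and at -2.06 on the y axis.

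To describe which group an interaction came from, a group was said to stand apart where its 3 arrays lay on 1 side of the other 9 arrays and the gap of its mean to the nearest other mean exceeded the range of those other means. This held for naive WT in 257 clusters (0.919%), for naive Stau2GT in 476 (1.7%), for trained WT in 283 (1.01%) and for trained Stau2GT in 765 (2.74%). Trained Stau2GT, the group with the largest spread, thus stood apart most often, being low in 375 of its clusters and high in 390. Among the 100 clusters with the lowest interaction p, trained Stau2GT stood apart in 29, trained WT in 15, naive WT in 10 and naive Stau2GT in 5. The remaining 41 had no group apart by this rule.

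The 4 clusters with the largest evidence were set by naive WT mice. Cluster 17467250, which is unnamed here, was at 6.72, 7.09 and 6.93 in naive WT and between 8.81 and 9.0 on the other 9 arrays. The naive WT mice were thus 4.02-fold lower than the mean of the other groups, and the groups did not overlap. Its interaction was -2.02 (standard error 0.12, limma, adjusted p = 0.000135). Clusters 17304162, 17304193 and 17304177 share the same several gene symbols in the platform annotation and are therefore not named. Naive WT arrays lay between 6.85 and 7.12 in all 3 of them, and the other 9 arrays between 7.81 and 8.60. Their interactions were -1.90, -1.59 and -1.82 (adjusted p = 0.00211 each). These 3 clusters may measure near-identical copies of 1 gene and are not independent of each other. All 4 clusters passed under each of the 23 alternative settings tried.

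Plac9a, the gene of a small secreted protein, also had its lowest values in naive WT. It was at 6.26, 5.91 and 6.12 in naive WT, 6.41, 6.68 and 6.52 in naive Stau2GT, 6.69, 6.89 and 6.76 in trained WT, and 6.57, 6.75 and 6.69 in trained Stau2GT mice. Naive WT lay below all other arrays, and the interaction was -0.55 (standard error 0.15, adjusted p = 0.480, unadjusted p = 0.00340). Plac9a has near-identical copies in the mouse genome, so its value may include them.

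Ide, the gene of the insulin-degrading enzyme that also cleaves amyloid beta, was the only gene with a name of its own that passed. Its values were 9.13, 9.05 and 9.12 in naive WT, 9.06, 9.19 and 9.18 in naive Stau2GT, 9.89, 9.87 and 9.77 in trained WT, and 8.99, 9.06 and 9.12 in trained Stau2GT mice. Trained WT stood apart, 1.67-fold above the mean of the other groups, and the other 3 means differed by at most 0.09. The interaction was -0.83 (standard error 0.09, limma, adjusted p = 0.0147). It passed in 16 of 23 alternative settings. The adjusted p was 0.0503 and 0.063 without naive WT mouse 1 or 2, 0.0823 and 0.0841 without naive Stau2GT mouse 2 or 3, and 0.0731 and 0.0569 without trained WT mouse 1 or 2, while the value stayed between -0.87 and -0.80 in all 12 omissions.

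The tested genes next to Ide on the chromosome did not share its pattern. The nearest on each side were close to the filter at 5, with group means of 4.86 to 5.07 in 4931408D14Rik and 5.13 to 5.26 in Kif11. Whether a difference between colonies plays a part in Ide was not tested, by these genes or otherwise. Among the 10 nearest tested genes in RefSeq order (5 on each side), trained WT differed from naive WT by between -0.12 for Myof and 0.15 for Hhex, against 0.74 for Ide. The 2 flanking genes with the lowest interaction p were A330032B11Rik (0.31, unadjusted p = 0.00707) and Btaf1, the gene of a TATA-binding protein remodeler (-0.34, unadjusted p = 0.0275). In Btaf1 it was trained Stau2GT that was lowest, with a mean of 7.97 against 8.18 to 8.27 elsewhere.

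The sixth called cluster, 17270096, is unnamed here and was set by trained Stau2GT mice. It was at 7.27, 7.41 and 7.03 there and between 8.97 and 9.72 on the other 9 arrays, a 4.52-fold difference from the mean of the other groups. The interaction was -2.0 (standard error 0.24, adjusted p = 0.0211). This call passed in 13 of 23 alternative settings. The adjusted p rose to 0.177 in the unmoderated linear model, to 0.0630 without naive WT mouse 2, to 0.0818, 0.104 and 0.0841 without naive Stau2GT mouse 1, 2 or 3, to 0.0731 and 0.0878 without trained WT mouse 1 or 3, and to 0.0675 and 0.0747 without trained Stau2GT mouse 1 or 3. It was not alone in this shape. Among the 30 clusters of lowest p, chosen after their values were seen, 4 further unnamed clusters (17459898, 17400808, 17323079 and 17448749) were low in trained Stau2GT alone, by 1.86- to 4.66-fold, with adjusted p between 0.262 and 0.271.

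**Figure D2:**
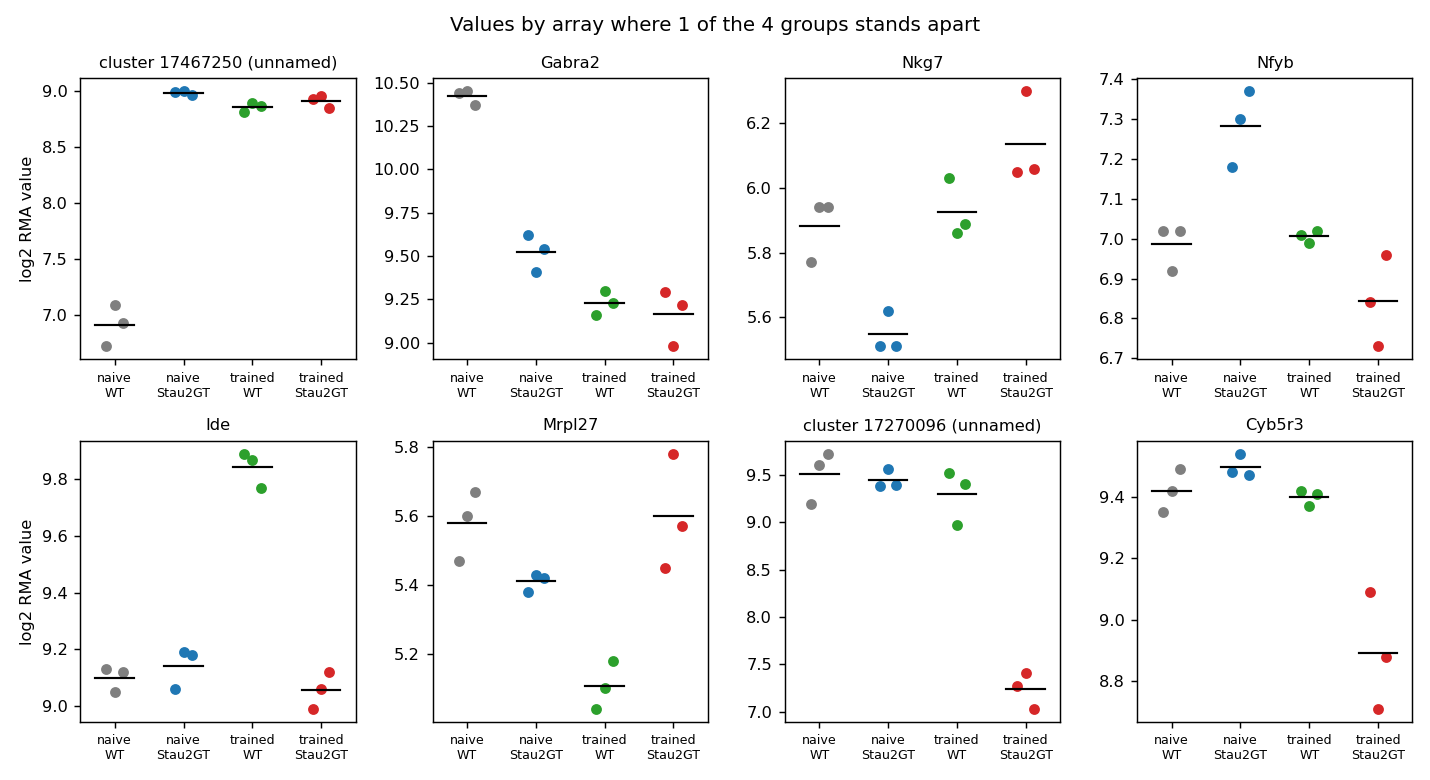
Log2 RMA values (y axis) of each array in the 4 groups (x axis) for 2 unnamed clusters and 6 genes, with black lines at the group means. Naive WT is the group apart in cluster 17467250 and Gabra2, naive Stau2GT in Nkg7 and Nfyb, trained WT in Ide and Mrpl27, and trained Stau2GT in cluster 17270096 and Cyb5r3.

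Above 0, the gene with the lowest p was Gabra2, which encodes the alpha2 subunit of the GABA-A receptor, the main inhibitory receptor of the brain. It was at 10.44, 10.45 and 10.37 in naive WT, 9.62, 9.41 and 9.54 in naive Stau2GT, 9.16, 9.30 and 9.23 in trained WT, and 9.29, 8.98 and 9.22 in trained Stau2GT mice. Naive WT lay above all other arrays, 2.17-fold above the mean of the other groups. The interaction of 0.83 (standard error 0.13) did not pass (adjusted p = 0.132), but it passed without trained Stau2GT mouse 2 (0.92, adjusted p = 0.0249), with quantile normalization (adjusted p = 0.0406), with trend and robust moderation (adjusted p = 0.0314) and with cyclic loess (adjusted p = 0.041). Of the 13 GABA-A subunit genes tested, Gabrr2 was the other one at an unadjusted p under 0.05 (0.36, unadjusted p = 0.0296), and the list median was -0.03, which turned to 0.02 with quantile normalization and to 0.05 without trained Stau2GT mouse 2.

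Gabra2 and Nnt, the gene of the mitochondrial nicotinamide nucleotide transhydrogenase, are known to carry alleles in C57BL/6J mice that lower their transcripts relative to other C57BL/6 substrains. Nnt was at 7.91, 7.72 and 7.98 in naive WT, 7.49, 7.44 and 7.36 in naive Stau2GT, 7.43, 7.40 and 7.52 in trained WT, and 7.41, 7.20 and 7.55 in trained Stau2GT mice. Naive WT stood apart as the highest group, as for Gabra2, and the interaction was 0.38 (standard error 0.14, unadjusted p = 0.0198, adjusted p = 0.601). Of 8 tested genes listed as differing between C57BL/6 colonies, 2 (Gabra2 and Nnt) lay above 0 and 1 (Ide) below 0 at an unadjusted p under 0.05. Of all tested clusters, 7.7% had such a p. The list was drawn up with earlier results of these data known, and its median was 0.01 (between -0.02 and 0.07 over the 12 omissions). The substrain or colony of each mouse was not measured, and its part in these values was not tested.

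The other 11 of the 12 genes with the lowest p above 0 did not pass either (adjusted p = 0.262 or higher). In most of them the difference ran in opposite directions in naive and trained mice, a shape that choosing by a low interaction p favors. Sh2b2, the gene of an adaptor of insulin receptor signaling, was at 6.79, 6.78 and 6.78 in naive WT, 6.53, 6.60 and 6.55 in naive Stau2GT, 6.68, 6.54 and 6.71 in trained WT, and 6.94, 6.84 and 6.83 in trained Stau2GT mice. Stau2GT lay below WT in every naive mouse and above WT in every trained mouse. The interaction was 0.45 (standard error 0.09, adjusted p = 0.339). Igf1, the gene of insulin-like growth factor 1, had the same crossing shape, with a genotype difference of -0.21 in naive and 0.21 in trained mice (interaction 0.41, adjusted p = 0.376). Tnfsf15, a cytokine of the TNF family (0.73), Tmem82 (0.44) and Tmem37 (0.43) also had no group apart.

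Below 0, the 12 genes with the lowest p included Ide and 11 that did not pass (adjusted p = 0.262 or higher). Fpgt, which makes GDP-fucose, was at 6.80, 6.92 and 6.78 in naive WT, 7.04, 7.10 and 7.13 in naive Stau2GT, 7.0, 7.12 and 6.88 in trained WT, and 6.72, 6.70 and 6.70 in trained Stau2GT mice. Here every Stau2GT mouse lay above the WT mice when naive and below them when trained (interaction -0.55, standard error 0.10, adjusted p = 0.262). Tfam, the transcription factor of mitochondrial DNA, crossed in the same way. It was at 6.43, 6.53 and 6.45 in naive WT, 7.03, 6.59 and 6.95 in naive Stau2GT, 6.53, 6.52 and 6.55 in trained WT, and 6.03, 6.23 and 6.31 in trained Stau2GT mice. The WT means differed by 0.06, and the Stau2GT mean was 0.67 lower in trained than in naive mice (interaction -0.73, standard error 0.16, adjusted p = 0.386). Prrg3 (-0.48) and Olfml1 (-0.50) crossed likewise. In the noncoding RNA Zfas1 (-0.66), a host of small nucleolar RNAs, the group means crossed and the trained arrays overlapped.

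Ppp3r2, the gene of a calcineurin B subunit known mainly from testis, was at 5.12, 5.38 and 5.27 in naive WT, 5.28, 5.19 and 5.14 in naive Stau2GT, 5.54 in 2 and 5.52 in 1 of the trained WT, and 4.95, 4.86 and 4.94 in trained Stau2GT mice. The trained groups lay on either side of the naive ones. The genotype difference passed in trained mice (-0.62, adjusted p = 0.00658) and was -0.05 in naive mice, and the test of the difference between them did not pass (-0.56, adjusted p = 0.262). Its level was close to the filter at 5. Of the 14 tested calcineurin subunits and regulators, no other reached an unadjusted p under 0.05, and the list median was -0.01 (between -0.04 and 0.01 over the 12 omissions).

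Naive WT stood apart in Psmd13, Gsta3 and Ilf2, besides Gabra2 and Plac9a, among the 5 genes named for that group. Psmd13, a proteasome subunit, was at 7.43, 7.38 and 7.44 in naive WT and between 7.48 and 7.69 on the other 9 arrays (interaction -0.33, adjusted p = 0.448). Ilf2, the gene of a partner in a complex that binds double-stranded RNA, was at 8.83, 8.86 and 8.80 in naive WT and between 8.87 and 9.15 elsewhere (interaction -0.35, adjusted p = 0.529). In Gsta3, a glutathione transferase gene, naive WT was the highest group, with a mean of 5.03 against 4.67 to 4.74 (interaction 0.39, adjusted p = 0.482). Gsta3 was above 5 on the 3 naive WT arrays only and so passed the filter through that group.

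Naive Stau2GT stood apart in Nkg7, Nfyb, Fgr, Cyp2r1 and Prokr2, the 5 genes named for that group. Nkg7, a granule protein of cytotoxic lymphocytes, was at 5.51, 5.62 and 5.51 there and between 5.77 and 6.30 elsewhere (interaction 0.55, adjusted p = 0.413). In whole tissue, fewer cells of a type and less RNA per cell cannot be told apart. Nfyb, a subunit of the CCAAT-binding factor NF-Y, was at 7.18, 7.30 and 7.37 there and between 6.73 and 7.02 elsewhere (interaction -0.46, adjusted p = 0.413). Fgr, a Src-family kinase of myeloid cells, was at 4.57, 4.84 and 4.48 in naive Stau2GT and 5.26, 5.15 and 5.37 in naive WT mice, with all 6 trained mice between 4.92 and 5.10 (interaction 0.61, adjusted p = 0.413). The genotype difference in Fgr was -0.63 in naive mice (adjusted p = 0.0696) and -0.02 in trained mice. Cyp2r1, a vitamin D 25-hydroxylase gene, was highest there (interaction -0.51) and Prokr2, a prokineticin receptor gene, lowest (interaction 0.42).

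Trained WT stood apart in Mrpl27, Pcdhb13, Prss23 and Gsn besides Ide. Mrpl27, a mitochondrial ribosomal protein gene, was at 5.04, 5.10 and 5.18 in trained WT and between 5.38 and 5.78 elsewhere (interaction 0.66, standard error 0.13, adjusted p = 0.279). Pcdhb13, a clustered protocadherin gene, was at 6.64, 6.63 and 6.61 in trained WT, 6.99, 6.95 and 6.98 in trained Stau2GT, and between 6.80 and 6.90 in all 6 naive mice. Its interaction of 0.33 (adjusted p = 0.413) passed in the unmoderated linear model alone (adjusted p = 0.0365). The genotype difference within trained mice passed (0.35, adjusted p = 0.038). Gsn, the gene of the actin-severing protein gelsolin, was high in trained WT, at 8.18, 8.17 and 8.27, and between 7.77 and 8.01 elsewhere (interaction -0.36, adjusted p = 0.480). Prss23, a serine protease gene, was low (interaction 0.38).

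Trained Stau2GT stood apart in Prph2, Dupd1, Klk1b5, Cyb5r3 and Mcoln3, and also in Usp39 and Kcna4. Prph2, a tetraspanin of photoreceptor discs, was at 5.87, 6.02 and 6.07 there and between 5.44 and 5.70 elsewhere (interaction 0.57, standard error 0.10, adjusted p = 0.262). The genotype difference in trained mice passed for Prph2 (0.49, adjusted p = 0.033). Cyb5r3, an NADH-cytochrome b5 reductase gene, was at 9.09, 8.71 and 8.88 in trained Stau2GT and between 9.35 and 9.54 on the other 9 arrays (interaction -0.58, standard error 0.12, adjusted p = 0.386). Kcna4, the gene of the A-type potassium channel Kv1.4, was at 7.58, 7.43 and 7.58 there and between 7.72 and 8.29 elsewhere (interaction -0.66, adjusted p = 0.448). Usp39, a splicing factor gene, was also lowest in trained Stau2GT (interaction -0.38). Dupd1, a phosphatase gene (0.74), Klk1b5, a kallikrein gene (0.73), and Mcoln3, a lysosomal channel gene (0.39), were highest there. Mean levels of these 3 were at most 6.20 in any group. Dupd1 was above 5 on the 3 trained Stau2GT arrays only, so it passed the filter through the group in which it was high.

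Immediate early transcription factors are the first genes that neurons switch on after activity. Cyclic AMP response elements bound by CREB and serum response elements, whose core is the CArG box bound by SRF, are known in their promoters. The 250 bases before the start sites of Fos and Egr2, 2 members at an unadjusted p under 0.05, are shown to give these elements. They come from RefSeq on GRCm38.p6, 5′ to 3′, at chr12:85473640-85473889 (Fos, plus strand) and chr10:67537619-67537868 (Egr2, plus strand, 1 of 5 listed starts). Capitals mark TGACG or its reverse complement CGTCA, the half-site of the cyclic AMP response element, and the CArG box.
Fos: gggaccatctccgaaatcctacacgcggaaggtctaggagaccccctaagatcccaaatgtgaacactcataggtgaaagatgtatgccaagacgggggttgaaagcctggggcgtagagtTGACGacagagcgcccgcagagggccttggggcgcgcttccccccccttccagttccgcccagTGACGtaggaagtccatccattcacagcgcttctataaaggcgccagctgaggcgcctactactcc
Egr2: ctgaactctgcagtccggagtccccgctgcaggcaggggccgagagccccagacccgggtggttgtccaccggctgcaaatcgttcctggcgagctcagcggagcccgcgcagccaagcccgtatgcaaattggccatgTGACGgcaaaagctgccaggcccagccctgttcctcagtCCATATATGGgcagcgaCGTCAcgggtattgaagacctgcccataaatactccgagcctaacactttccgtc
Fos held 2 half-sites and no CArG box in this window, and Egr2 held 2 half-sites and 1 CArG box. Among the 5 listed starts of Egr2, the window with the most matches was chosen, whereas Fos had 1 listed start. Of the 23 tested members, 18 had a listed promoter. A half-site lay in the window of 14 of these 18 genes (77.8%), against 19.8% of all 27025 listed genes. A CArG box lay in 2 of them (11.1%), against 1.62% of all. A match is a string of letters and not a measured binding site.

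Interaction differences of this list leaned below 0. Of 23 members tested (24 listed), 19 lay below 0 and 4 above, and the median was -0.22. Over all tested genes 51.7% lay below 0. In 4 classes of equal size, from the genes of lowest to those of highest mean level, 32.0%, 48.8%, 62.7% and 63.4% lay below 0. The class medians were 0.09, 0.00, -0.04 and -0.04, and the list had 3, 8, 6 and 6 members in these classes. Counts above or below 0 in the other lists also depend on the level of their members. None of the 23 passed, and 5 below 0 and 1 above 0 had an unadjusted p under 0.05. The median of the list was 0.04 for the genotype difference in naive mice and -0.13 in trained mice. Trained WT had the highest group mean in 17 of 23 members (21.2% of all genes), and naive WT the lowest in 12 (23.5% of all genes). The list median was -0.14 without naive WT mouse 3 and lay between -0.30 and -0.14 over the 12 omissions.

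Egr1 had the lowest p of the members below 0. It was at 8.73, 8.82 and 8.49 in naive WT, 9.05, 8.75 and 9.16 in naive Stau2GT, 9.26, 8.98 and 9.22 in trained WT, and 8.99, 8.98 and 8.73 in trained Stau2GT mice. Stau2GT means lay above WT when naive and below WT when trained, and arrays of the 2 genotypes overlapped in both states. The interaction was -0.56 (standard error 0.18, unadjusted p = 0.0117, adjusted p = 0.554). Fos, the partner of Jun in AP-1, was at 6.19, 5.96 and 5.63 in naive WT, 6.73, 6.27 and 6.67 in naive Stau2GT, 6.99, 6.93 and 7.35 in trained WT, and 7.32, 7.04 and 6.93 in trained Stau2GT mice. Naive WT was the group apart in Fos, with a naive genotype difference of 0.63 and a trained one of 0.01 (interaction -0.62, standard error 0.25, unadjusted p = 0.0304, adjusted p = 0.630).

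Egr2 had another shape than Fos. It was at 6.21, 6.17 and 5.91 in naive WT, 6.17, 5.93 and 6.48 in naive Stau2GT, 7.25, 6.66 and 6.97 in trained WT, and 6.55, 6.52 and 6.58 in trained Stau2GT mice. Its naive groups overlapped, and all trained WT arrays lay above all trained Stau2GT arrays (interaction -0.51, unadjusted p = 0.0486, adjusted p = 0.649). Egr3 had trained WT highest as well (-0.30, unadjusted p = 0.0244), and Ier2 had naive WT lowest (-0.41, unadjusted p = 0.0346). Npas4, a factor specific to neuronal activity, was at -0.50 (standard error 0.31, unadjusted p = 0.137) and the nuclear receptor Nr4a1 at -0.51 (standard error 0.29, unadjusted p = 0.109). Maff, a small Maf protein that pairs with stress-response factors, went the other way. It was at 5.58, 5.49 and 5.43 in trained Stau2GT and between 4.83 and 5.21 on the other 9 arrays (interaction 0.44, unadjusted p = 0.00991, adjusted p = 0.543).

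**Figure D3:**
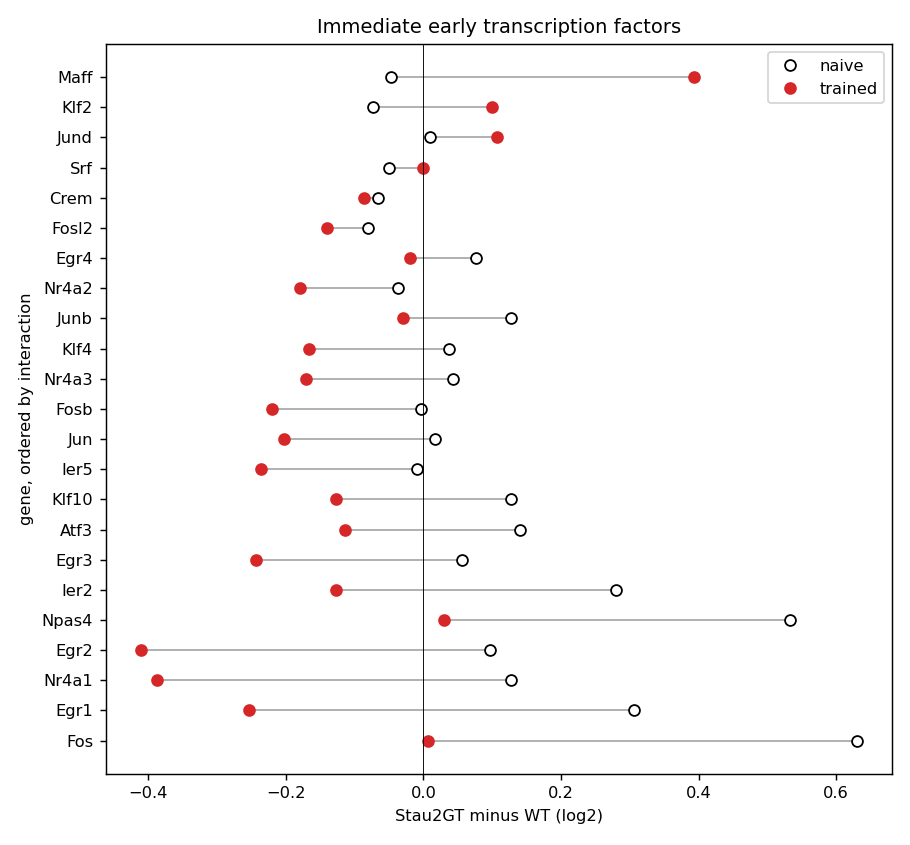
Difference between Stau2GT and WT (x axis, log2) in naive mice (open circles) and trained mice (red circles) for the 23 tested immediate early transcription factors (y axis), ordered by the interaction. The red circle lies left of the open one in 19 genes and right of it in 4, with Fos at the bottom and Maff at the top.

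Activity-induced effector genes, which act at synapses or limit signaling, had a median of -0.15, with 21 of 25 below 0 and 4 above. Btg2, an antiproliferative gene induced by neuronal activity, was the 1 member at an unadjusted p under 0.05. It was at 6.57, 6.34 and 6.57 in naive WT, 6.84, 6.87 and 6.73 in naive Stau2GT, 7.09, 7.02 and 7.26 in trained WT, and 7.14, 7.16 and 6.95 in trained Stau2GT mice. Naive WT stood apart as the lowest group (interaction -0.36, standard error 0.13, unadjusted p = 0.0205, adjusted p = 0.601). Bdnf, the gene of the growth factor of synaptic plasticity, was likewise lowest in naive WT (-0.15, unadjusted p = 0.152). Arc, whose product removes AMPA receptors from synapses, was at -0.30 (unadjusted p = 0.221). The list median was -0.27 without naive Stau2GT mouse 2 and -0.08 without trained Stau2GT mouse 2.

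Glucocorticoid-induced genes are raised by corticosterone, the stress hormone of mice. They leaned above 0, with 18 of 21 above and 3 below and a median of 0.10. Naive WT had the highest group mean in 16 of the 21 (20.2% of all genes). This rested on 2 of its 3 mice, since the summed list level, the mean over members of values centered on each gene's mean, was 0.36 and 0.37 in naive WT mice 1 and 3 and -0.17 in mouse 2. Levels on the other 9 arrays lay between -0.15 and 0.09. Plin4, a lipid droplet protein gene, was at 6.70, 6.27 and 6.80 in naive WT, against 6.01 to 6.54 elsewhere (interaction 0.49, unadjusted p = 0.0433, adjusted p = 0.645). The list median was 0.06, 0.23 and 0.03 without naive WT mouse 1, 2 or 3, and 0.05 without naive Stau2GT mouse 1. Of 21 listed blood cell genes, 8 were tested, 7 of them above 0, with a median of 0.22 (0.70 with the filter at log2 6, which left 2 members). Of these 8, 6 were in the class of lowest level, where only 32.0% of all genes lay below 0. The summed level of the blood cell list was 0.47, -0.07 and 0.21 in naive WT mice 1 to 3 against -0.17 to 0.03 elsewhere. Lcn2, the gene of the iron-binding protein lipocalin 2, stood on both lists. It was at 8.93, 5.51 and 8.46 in naive WT mice 1 to 3 and between 5.22 and 6.35 elsewhere. Without Lcn2 the level of the other 7 blood cell genes was 0.15, 0.01 and -0.09 in these mice and -0.11 to 0.14 elsewhere, and that of the other 20 glucocorticoid-induced genes was 0.24, -0.15 and 0.28 against -0.12 to 0.10 elsewhere. Only the glucocorticoid list thus kept naive WT mice 1 and 3 above all other arrays without Lcn2. Mmp9, a neutrophil protease gene, had the lowest p of the blood list (0.29, unadjusted p = 0.0478) and was at 5.68, 5.61 and 5.61 in naive WT. S100a8, a neutrophil marker, was above 5 on none of the arrays. What blood cells contributed to the glucocorticoid list was not tested.

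**Figure D4:**
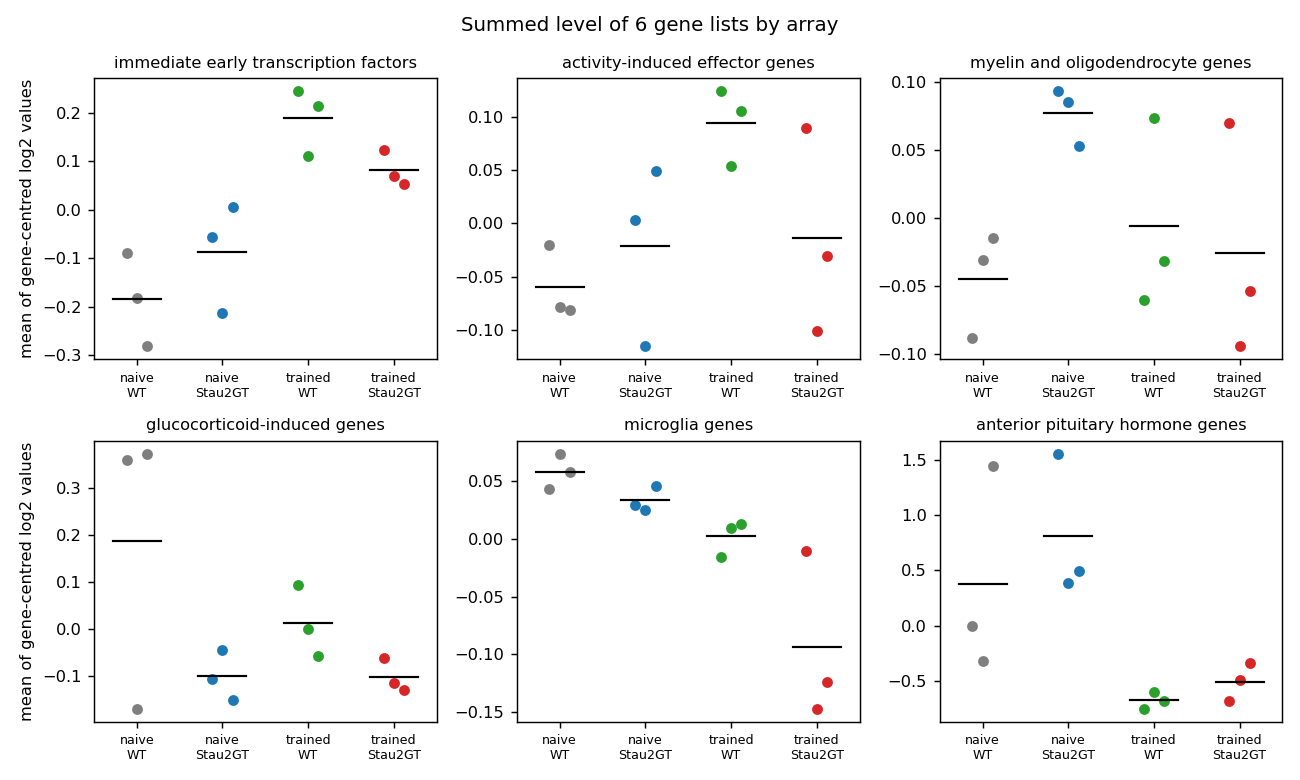
Summed level of 6 gene lists (y axis, mean over members of log2 values centered on each gene's mean) for each array in the 4 groups (x axis), with black lines at group means. Naive WT mice 1 and 3 lie high for glucocorticoid-induced genes, trained Stau2GT mice 2 and 3 lie low for microglia genes, and single naive mice lie high for anterior pituitary hormone genes.

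Myelin and oligodendrocyte genes had a median of -0.13, with 18 of 21 below 0 and 3 above. Of the 21, 15 were in the class of highest mean level, where 63.4% of all genes lay below 0. Measured from the median of each member's level class, the list median was -0.09. Mag, an adhesion protein of myelin facing the axon, was at 8.97, 9.17 and 9.19 in naive WT, 9.34, 9.27 and 9.24 in naive Stau2GT, 9.30, 9.35 and 9.31 in trained WT, and 9.32, 9.10 and 8.97 in trained Stau2GT mice. Trained Stau2GT mouse 1 lay among the trained WT mice, and mice 2 and 3 lay below them (interaction -0.36, unadjusted p = 0.0181, adjusted p = 0.592). Mog, a protein of the outer myelin surface, had the same value (-0.36, unadjusted p = 0.0200). Ermn and Aspa, 2 further oligodendrocyte genes, were highest in naive Stau2GT (-0.28 and -0.36, unadjusted p = 0.0415 and 0.0491). Naive Stau2GT had the highest mean in 12 of the 21 members (28.6% of all genes), and naive WT the lowest in 10. Without trained Stau2GT mouse 2 the list median was -0.08.

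Other glial and vascular lists lay on the same side. Astrocyte genes had a median of -0.10 (15 of 20 below 0), endothelial and pericyte genes -0.11 (17 of 22), microglia genes -0.09 (17 of 22) and meningeal fibroblast genes -0.09 (14 of 21). Measured from the median of each member's level class, they were at -0.06, -0.10, -0.09 and -0.09, in the same order. Kdr, the endothelial VEGF receptor gene, was at 6.92, 7.42 and 6.89 in naive WT, 7.70, 7.58 and 7.58 in naive Stau2GT, 7.21, 7.19 and 7.29 in trained WT, and 7.36, 7.10 and 7.28 in trained Stau2GT mice. Naive Stau2GT was the group apart (interaction -0.53, standard error 0.18, unadjusted p = 0.0147, adjusted p = 0.568). Slco1c1, a thyroxine carrier, and Gja1, the main astrocytic connexin, had the lowest p among astrocyte genes (-0.31 and -0.22). The microglia member with the lowest p was Fgr, described above, which lay above 0 (0.61, unadjusted p = 0.00130). Havcr2, an immune receptor of microglia, was at 4.99, 5.06 and 4.97 in trained Stau2GT against 5.30 to 5.52 elsewhere (interaction -0.28, unadjusted p = 0.00715, adjusted p = 0.513). Summed microglia levels were -0.15 and -0.12 in trained Stau2GT mice 2 and 3, and -0.02 to 0.07 on the other arrays, mouse 1 of that group included.

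The astrocyte, vascular, microglia and meningeal list medians moved by over 1.5 times with single mice. Astrocyte genes were at -0.06 without naive Stau2GT mouse 2 and at -0.06 without trained Stau2GT mouse 3, endothelial genes at -0.07 without naive WT mouse 1, microglia genes at -0.15 without trained Stau2GT mouse 1, and meningeal genes at -0.04 without naive WT mouse 2. None of them turned in sign in the 12 omissions.

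**Figure D5:**
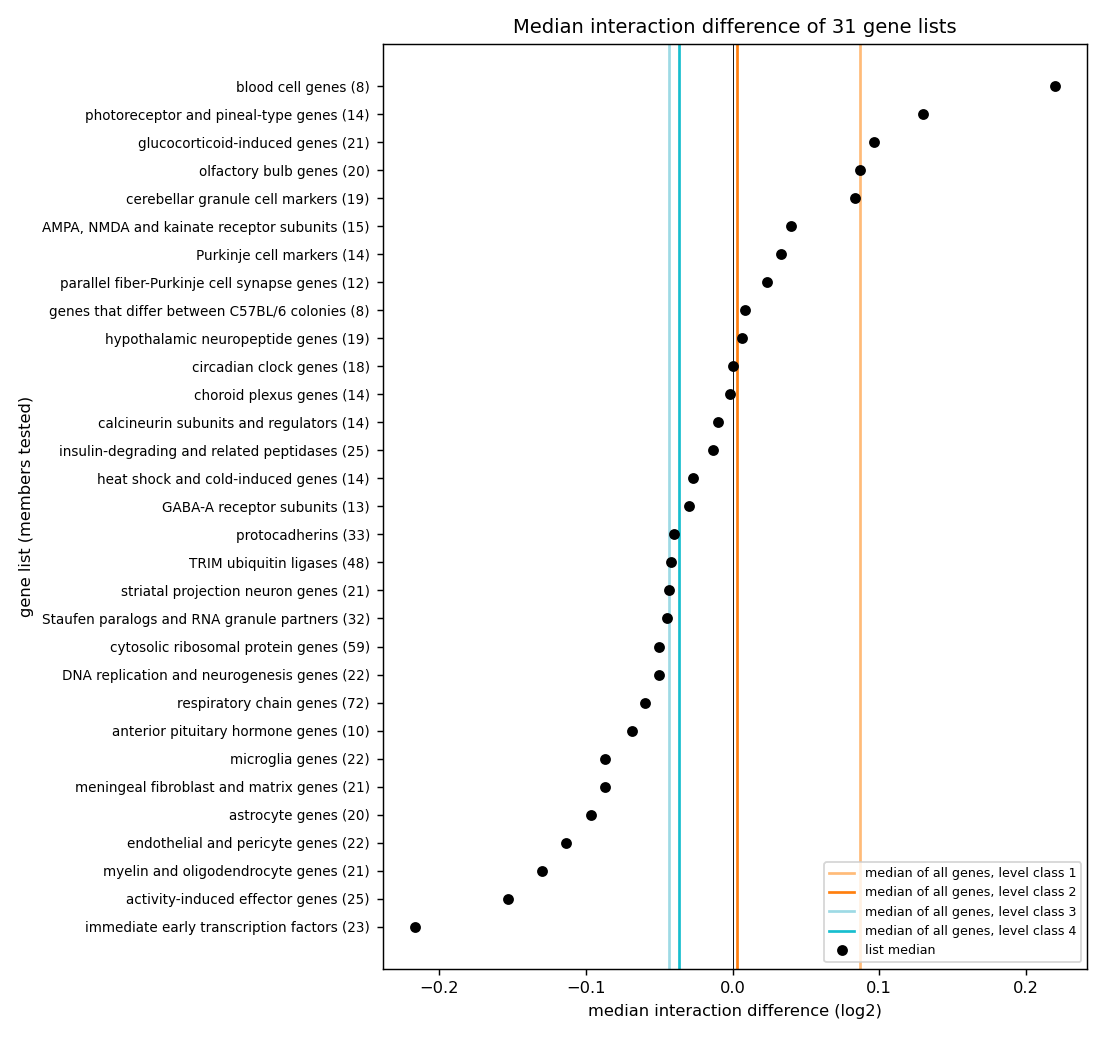
Median interaction difference (x axis, log2) of 31 gene lists (y axis, number of tested members in brackets), with colored lines at the medians of all tested genes in 4 classes of equal size, from the lowest (1) to the highest mean level (4). Immediate early transcription factors lie lowest at -0.22 and blood cell genes highest at 0.22, and 16 of the 31 medians lie from the lowest to the highest line, 12 below and 3 above.

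Lists of neuronal receptors and cerebellar synapses had medians near 0. AMPA, NMDA and kainate receptor subunits had a median of 0.04 (11 of 15 above 0), which turned to -0.01 with median centering, and genes of the parallel fiber to Purkinje cell synapse 0.02 (7 of 12), which turned to -0.03. No member of either list had an unadjusted p under 0.05. Purkinje cell markers were at 0.03 and granule cell markers at 0.08. Trained Stau2GT had the highest mean in 13 of 19 granule cell markers (68.4%) and 7 of 14 Purkinje cell markers, against 30.1% of all genes. The granule cell median lay 0.11 above that of genes of like level. Both medians were below 0 without naive WT mouse 3 (-0.08 and -0.01) or naive Stau2GT mouse 1 (-0.07 and 0.00). Olfactory bulb genes had a median of 0.09 (15 of 20 above 0), with Nmb, the neuromedin B gene, at 0.37 and the interneuron factor Dlx2 at 0.31 (unadjusted p = 0.0382 and 0.0491). Naive WT had the highest mean in 11 of these 20 genes (20.2% of all genes). The summed list level was 0.16 and 0.14 in naive WT mice 1 and 2, -0.02 in mouse 3, and between -0.07 and 0.02 on the other arrays. The olfactory bulb median was 0.06 without naive Stau2GT mouse 2 and 0.05 without trained WT mouse 3.

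Stau2 itself had an interaction of -0.05 (standard error 0.09, unadjusted p = 0.587). It was at 8.22, 8.32 and 8.21 in naive WT, 8.08, 8.06 and 8.07 in naive Stau2GT, 8.27, 8.16 and 8.30 in trained WT, and 8.02, 7.95 and 8.07 in trained Stau2GT mice, so Stau2GT arrays lay below WT arrays in both states. Among 32 tested Staufen paralogs and RNA granule partners the median was -0.05 and 21 lay below 0. Of the 32, 26 were in the class of highest mean level, where 63.4% of all genes lay below 0. Rgs4, a regulator of G protein signaling whose mRNA is a known Staufen2 target, had the lowest p of that list. It was at 10.12, 10.17 and 10.02 in naive WT, 10.27, 10.29 and 10.34 in naive Stau2GT, 10.17, 10.09 and 10.06 in trained WT, and 10.12, 9.90 and 9.98 in trained Stau2GT mice. Naive Stau2GT was the group apart (interaction -0.30, unadjusted p = 0.0130, adjusted p = 0.562). The list median was between -0.08 and -0.02 over the 12 omissions. Cbln1, which links parallel fibers to Purkinje cells, had an interaction of 0.15 (standard error 0.20, unadjusted p = 0.475).

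Gene families of protein synthesis and respiration lay slightly below 0, close to the median of -0.04 of genes of highest level. Of that class 63.4% lay below 0. Respiratory chain genes had a median of -0.06 (52 of 72 below 0). Ndufs1, the largest subunit of complex I, was at 8.93, 8.88 and 9.0 in naive WT, 9.09, 9.09 and 9.10 in naive Stau2GT, 9.04, 8.98 and 8.96 in trained WT, and 8.82, 8.77 and 8.93 in trained Stau2GT mice (interaction -0.31, unadjusted p = 0.00504). Genotypes did not overlap in either state, and the order was opposite. Cytosolic ribosomal protein genes had a median of -0.05 (41 of 59 below 0). Rpl30 had the lowest p of that list (-0.80, unadjusted p = 0.0142), with a mean of 5.34 in trained WT against 4.72 to 5.03 elsewhere. Its level was thus close to the filter at 5. Rps7 was at -0.29 (unadjusted p = 0.0323). Rpl3, Rpl26 and Rpl22 lay above 0 (0.70, 0.35 and 0.24, unadjusted p = 0.0349, 0.0211 and 0.0382) and were among the 15 of 59 members with the highest mean in trained Stau2GT (30.1% of all genes). Rpl3 was at 9.89, 9.20 and 8.81 there, against 8.34 to 8.66 elsewhere, and its 3 arrays differed among themselves more than all others did. Without trained Stau2GT mouse 1, 2 or 3 the respiratory median was -0.12, -0.03 and -0.04 and the ribosomal median -0.12, -0.01 and -0.01, and without naive WT mouse 1 the ribosomal median was -0.03.

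TRIM ubiquitin ligases had a median of -0.04 over 48 genes (-0.02 without naive WT mouse 2 and -0.07 without naive Stau2GT mouse 2), 5 above and 3 below 0 at an unadjusted p under 0.05. Mid1, a ligase bound to microtubules, was at 9.03, 8.96 and 9.20 in naive WT, 8.55, 8.40 and 8.06 in naive Stau2GT, 8.71, 8.70 and 9.0 in trained WT, and 7.78, 7.41 and 7.51 in trained Stau2GT mice. The genotype difference was -0.73 in naive mice (adjusted p = 0.258) and -1.24 in trained mice, where it passed (adjusted p = 0.00494). The interaction was -0.51 (standard error 0.20, unadjusted p = 0.0280, adjusted p = 0.629). Protocadherins had a median of -0.04 over 33 genes (between -0.08 and 0.00 over the 12 omissions), and beside Pcdhb13 only Pcdhb17 had an unadjusted p under 0.05 (-0.25, with trained Stau2GT lowest). Circadian clock genes had a median of 0.00, with Arntl at -0.32 and Dbp, which is known to peak opposite to Arntl, at 0.30 (unadjusted p = 0.0155 and 0.0358). Dbp was lowest in naive Stau2GT, and the time of day of dissection was not tested.

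Genes of tissues that border the brain varied between single mice. The summed level of anterior pituitary hormone genes was 1.45 in naive WT mouse 3 and 1.56 in naive Stau2GT mouse 1, and between -0.76 and 0.50 on the other 10 arrays. Pomc, the hormone precursor gene of pituitary and hypothalamus, was at 5.69, 5.04 and 7.25 in naive WT and 7.56, 6.82 and 7.33 in naive Stau2GT mice, against 4.97 to 5.93 in the 6 trained mice (interaction -0.96, standard error 0.63, unadjusted p = 0.158). The median of 10 tested pituitary genes was -0.07, and it was -0.67 without naive WT mouse 3 and 0.15 without naive Stau2GT mouse 1. Photoreceptor and pineal-type genes had a median of 0.13 over 14 tested of 26 listed, where 13 of the 14 belonged to the class of genes with the lowest level. That median was 0.08 without naive Stau2GT mouse 1, 0.06 without naive Stau2GT mouse 3, 0.08 without trained Stau2GT mouse 2, 0.07 with quantile normalization, 0.08 with median centering and 0.05 with cyclic loess. With the filter at log2 6 only 1 member was left, at 0.49. Rom1, the partner of Prph2 in photoreceptor discs, was at 5.94, 5.57 and 5.76 in trained Stau2GT and 5.39, 4.74 and 5.55 in trained WT mice (interaction 0.65, unadjusted p = 0.0233).

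The 6 lists not yet described had medians between -0.05 and 0.01. DNA replication and neurogenesis genes were at -0.05 (10 of 22 above 0). Mcm6, a subunit of the replicative helicase, was at 5.92, 5.84 and 6.01 in naive WT, 5.34, 5.50 and 5.32 in naive Stau2GT, 5.85, 5.96 and 5.86 in trained WT, and 5.58, 5.70 and 5.88 in trained Stau2GT mice. All naive Stau2GT mice lay below the other 9 arrays (interaction 0.37, unadjusted p = 0.0137, adjusted p = 0.565). Choroid plexus genes were at 0.00 (7 of 14 above 0), hypothalamic neuropeptide genes at 0.01 (10 of 19), striatal projection neuron genes at -0.04 (7 of 21), heat shock and cold-induced genes at -0.03 (5 of 14), and genes of insulin signaling and insulin-degrading peptidases at -0.01 (10 of 25). Signs of the DNA replication, choroid plexus, hypothalamic and heat shock medians turned when single mice were left out.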

How the data were processed

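RNA of 12 mouse brains was hybridized to Affymetrix Mouse Gene 2.0 ST arrays. The authors deposited log2 values, made by RMA normalization with oligo, for 41345 transcript clusters. No source says if both runs were normalized jointly. Clusters above log2 5 in at least 3 arrays were kept (27966: 17331 with 1 gene symbol in the platform annotation, 1278 with several and 9357 with none). A gene was named only from a cluster with 1 symbol, the one of highest mean if it had several (16425 genes). limma 3.58.1 in R 4.3.3 fitted 4 group means to all 12 arrays, and p-values were adjusted by Benjamini-Hochberg over all clusters tested. Scripts were tested on simulated data. The number of arrays limits the precision. Named genes were the 12 in each direction with the lowest interaction p, the 5 per group with the lowest p among genes in which that group stood apart, the 10 flanking Ide, Stau2, Cbln1, and in each of 31 lists members with an unadjusted p under 0.05 (at most 6, otherwise the 2 lowest). Predicted genes, small RNAs and olfactory or vomeronasal receptors were counted but not ranked. Npas4, Nr4a1, Arc, Bdnf, Lcn2 and the unnamed clusters were added after their values were seen. The members, lists and comparisons were chosen with earlier results of these data known. Alternatives were other filters, quantile normalization, median centering, trend and robust moderation, array or group weights, the replicate number as a block, an unmoderated linear model, the mean over clusters of a gene, and each array left out. Cyclic loess, counting identical clusters once and leaving Lcn2 out of 2 lists were added after the data were seen. Replicate numbers did not pair the mice (18 correlations of deviations between -0.10 and 0.07).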

Additional observations from a re-analysis of the deposited data

Results flagged for a closer look

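The genotype difference differed between naive and trained mice, by the test of the interaction itself (limma, adjusted p under 0.05), in 6 clusters. The differences were -2.02 for cluster 17467250, -1.90, -1.59 and -1.82 for clusters 17304162, 17304193 and 17304177, -0.83 for Ide and -2.0 for cluster 17270096. With 3 mice a group, no test for outlying single mice was run, but each of the 12 mice was left out in turn.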

How the results depend on the processing

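The 6 calls below 0 were 4 to 8 when an array was left out, 4 with the replicate number as a block, 5 in the unmoderated linear model and 6 in the other settings. The count above 0, which was 0, became 1 with the filter at log2 6, 2 with quantile normalization, 3 with trend and robust moderation, 1 in the unmoderated linear model and 2 with cyclic loess. It was 0 to 4 when an array was left out, with 4 without trained Stau2GT mouse 2. With the replicate number as a block there were 4 calls below 0 and 0 above, and Ide and cluster 17270096 each had an adjusted p of 0.118. Among the named genes that were recomputed, only Cbln1 changed sign, at -0.025 without naive WT mouse 3. Its values were between -0.025 and 0.24 over the 12 omissions. The genes flanking Ide and Npas4, Nr4a1, Arc, Bdnf and Lcn2 were not recomputed. Of the recomputed list medians, 555 moved by less than 1 SD of the replicate levels and 67 by more, 16 of these with median centering, which shifts the median of all clusters to -0.05. The causes were not tested. With 3 mice a group, small interactions were not detectable.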
